A study of Homo sapiens with 12 samples.

Results

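Genes of the cytosolic ribosomal proteins were followed across 4 treatments of ML-2, a line of human acute myeloid leukaemia cells. The genes were taken by symbol: RPL, RPS or RPLP names with their numbers and suffixes in the platform annotation, leaving out RPS27L. Only probe sets with exactly 1 gene symbol were read, and each gene was represented by its probe set with the highest mean over the 12 arrays, a choice that does not look at treatment. Of 73 symbols of this kind in the annotation, 58 had such a probe set, and the other 15 appeared only on probe sets shared with another gene and were not read. The 58 came from 19775 genes in all. They comprised 38 large subunit and 20 small subunit names, and included 6 paralogues outside the usual ribosome (RPL3L, RPL7L1, RPL10L, RPL22L1, RPL26L1 and RPL39L). Of the 58, 55 passed the brightness filter and were tested among 12689 genes. RPL3L, RPL36A and RPL39L did not pass, with mean RMA log2 intensities of 3.90, 3.87 and 3.59.

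Each treatment group held 3 arrays, which the series design assigns to 3 independent experiments and whose titles carry the numbers 2, 9 and 13. Solvent-treated cells were the control. SGI-110 (guadecitabine, a dinucleotide that releases the DNA methyltransferase inhibitor decitabine) was given at 2 µM for 33 h. ASTX660, an antagonist of inhibitor of apoptosis proteins, was given at 5 µM for 9 h, and the combination was 2 µM SGI-110 for 24 h followed by 5 µM ASTX660 for 9 h. The sources used here do not say whether SGI-110 was still present during those 9 h. All groups come from this single line.

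The cytosolic ribosome is built from ribosomal RNA and ribosomal proteins, which cells make in matched amounts. Most messages of these proteins begin with a C followed by an unbroken run of C and T, the terminal oligopyrimidine tract, through which mTOR and the RNA-binding protein LARP1 set how actively they are translated. RPL11 can also leave the ribosome pathway and bind MDM2, which links ribosome assembly to p53. Arrays of total RNA read the amount of each message and not its translation.

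The tract is printed here for 10 genes because most standard members carry it and part of the paralogues lack it. The stretches run from 15 bases before the annotated start to the 15th transcribed base, 5′ to 3′ on the sense strand. They are RefSeq promoter entries of build GRCh38.p14. Capitals mark the C at the start and the C and T bases that follow it without a break, where that run reaches at least 5 bases.
RPS19: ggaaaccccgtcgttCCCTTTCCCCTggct
RPS27: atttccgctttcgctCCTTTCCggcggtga
RPL41: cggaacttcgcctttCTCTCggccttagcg
RPL14: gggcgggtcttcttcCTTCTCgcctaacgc
RPL36: ccgcgcggcgccagcCCTTCCgccacggcc
RPL22: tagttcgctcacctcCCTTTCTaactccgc
RPL22L1: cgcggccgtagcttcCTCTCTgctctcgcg
RPL7L1: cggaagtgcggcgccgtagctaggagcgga
RPL26L1: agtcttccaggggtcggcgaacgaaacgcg
RPL10L: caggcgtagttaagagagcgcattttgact

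The positions are chr19:41860240-41860269 (plus strand) for RPS19, chr1:153990747-153990776 (plus) for RPS27, chr12:56116618-56116647 (plus) for RPL41 and chr3:40457324-40457353 (plus) for RPL14. RPL36 lies at chr19:5690280-5690309 (plus), RPL22 at chr1:6199581-6199610 (minus) and RPL22L1 at chr3:170870181-170870210 (minus). RPL7L1 lies at chr6:42879601-42879630 (plus), RPL26L1 at chr5:172958714-172958743 (plus) and RPL10L at chr14:46651767-46651796 (minus). RPS19 had the longest marked run among these 10, of 11 bases, and RPL22L1 carried a run of 6 bases like RPL14 and RPL36. RPL7L1, RPL26L1 and RPL10L showed no run of that length at any start listed for them.

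Promoter entries matched 50 of the 58 members by symbol. A C at a listed start followed by 4 bases that were each C or T, read on the sense strand only, was found for 35 of the 50 (70%), against 953 of 15792 other protein-coding genes (6.03%). Among the standard members it was 34 of 46 (73.9%), and among the paralogues it was RPL22L1 alone of 4. Several genes have more than 1 listed start, and any start could give the match. The ETS core CCGGAA, or TTCCGG on the other strand, which can overlap the tract as it does in RPS27, lay in the 300-base window of 29 of the 50 members (58%) and 26.5% of other genes. The median number of CG dinucleotides in the window was 24 for members and 24 for other genes. These matches describe letters in the window and not bound sites.

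The cell line label fitted its markers: 9 of 10 readable myeloid leukaemia markers lay above the median of every array, among them ELANE, MPO and LYZ at means of 13.61, 13.34 and 13.29, while MEIS1 was at 3.32. Markers of B cells, T cells, erythroid, epithelial and fibroblast cells reached at most 7.65 (COL1A1), where the median of all tested genes was 7.70. By the same count, 2 of 3 readable B cell markers lay above the median of every array. So did 1 of 3 erythroid markers and 1 of 4 each for T cell, epithelial and fibroblast markers. ASTX660 array 2 stood apart from the others on the third principal component, with a score of 16.95 against -9.28 to 4.11 for the remaining arrays; without it, ASTX660 called no member, as with it. In such bulk RNA, less RNA per cell and fewer cells of a type cannot be told apart, and RMA sets the arrays to a common distribution, so the amount of ribosomal protein messages per cell was not measured.

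The ribosomal protein genes were among the brightest features of every array. Of the 50 brightest tested genes, 32 were members, and 46 of the 58 had a mean RMA log2 intensity of 13 or more, where the brightest value of any array lay between 14.34 and 14.38. Another 3 members lay between 12 and 13, and 9 under 12. RPL41, the smallest ribosomal protein, was the brightest member and was nearly the same on all arrays. It read 14.37, 14.37 and 14.37 in solvent, 14.37, 14.38 and 14.35 with SGI-110, 14.36, 14.38 and 14.37 with ASTX660, and 14.37, 14.37 and 14.34 with the combination, in the order of numbers 2, 9 and 13 that is used throughout. Next came RPLP1, an acidic protein of the ribosomal stalk, at 14.11, RPL37A at 14.11, RPS18 at 14.10 and RPS10 at 14.09. Towards the top of the scale the signal of such arrays saturates, so a change in RNA can move a bright probe set by less than its true size. The dimmest tested members were RPL10L at 5.84 and RPLP2, the partner of RPLP1 in the stalk, at 7.01. Intensities of different probe sets are not comparable amounts, so the low reading of RPLP2 describes its probe set and not its message.

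The median of the tested members on each array stayed between 13.65 and 13.69 over all 12 arrays. Arrays of a group also differed little: the median within-group SD was 0.025 for members, 0.044 for 301 other genes with a mean of at least 12, and 0.10 for all tested genes. The member with the widest spread within groups was RPL22L1 (pooled SD 0.23), followed by RPL3L, RPLP2, RPL36A and RPL39L with pooled SDs of 0.18, 0.17, 0.17 and 0.11. Many ribosomal protein genes have processed copies elsewhere in the genome, and 27 of the 58 were read from probe sets of the s_at class and 16 of the x_at class, which can also detect related transcripts. Values of such members are therefore uncertain where a copy is transcribed.

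**Figure D1:**
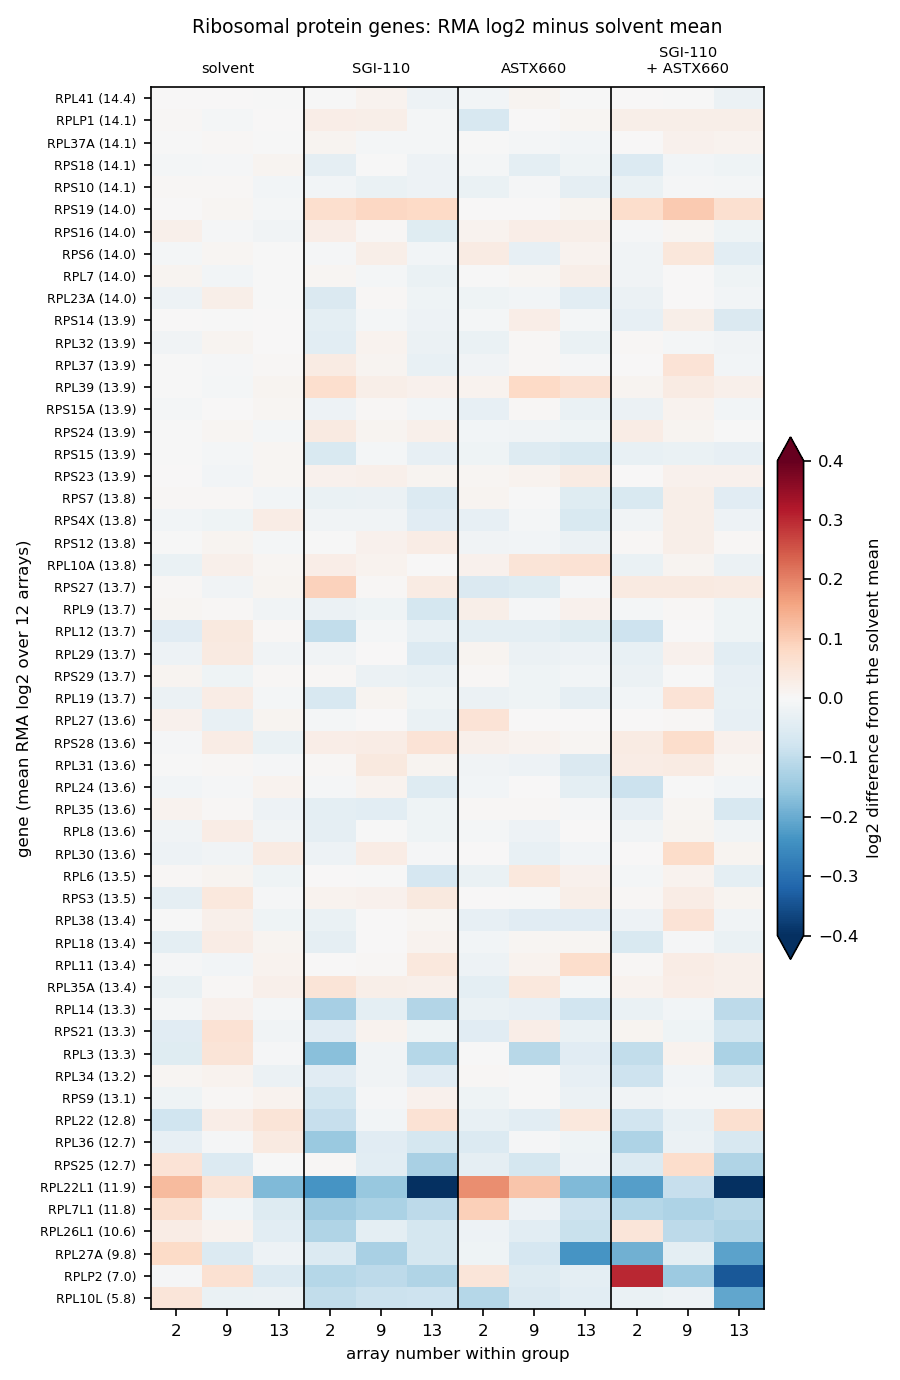
Heat map of the 55 tested members, ordered from the brightest to the dimmest by mean RMA log2 intensity (in brackets). Each cell is 1 array, grouped by treatment, and its colour is the RMA log2 value minus the mean of the 3 solvent arrays, on a scale from -0.4 to 0.4 that is clipped at its ends. The RPS19 line is higher on all 6 arrays with SGI-110, the RPL7L1 line is lower on all 6, and RPL22L1 shows its lowest values on the SGI-110 arrays numbered 13.

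The first comparison asked what SGI-110 alone did to these messages. RPS19, a small subunit protein whose gene is mutated in Diamond-Blackfan anaemia, was the only member that passed the main test, and its rise was small. The other 54 members did not pass it, with log2 changes from -0.34 for RPL22L1 to 0.043 for RPS27. The main test did not use the array numbers. A fit that did, given below, also called 4 members lower. The median change of the 55 members was -0.017 on the log2 scale, against 0.00047 for all tested genes. Below 0 lay 39 members and above it 16, where all tested genes split into 6323 and 6366. The 301 other genes with a mean of at least 12 split into 177 and 124, with a median of -0.018. The members' median varied between arrays of a group with an SD of 0.017, and its shift was not tested. With quantile normalization the medians were -0.0064 for members and -0.015 for all genes. At an adjusted p under 0.05 (limma, Benjamini-Hochberg over 12689 genes) 1 of 55 members was called, while 15.4% of all tested genes were called in either direction and 9.5% were called higher. Among the 301 other genes with a mean of at least 12, 22.9% were called, 30 higher and 39 lower.

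RPS19 read 13.95, 13.95 and 13.94 in solvent and 14.02, 14.03 and 14.03 with SGI-110. All 3 SGI-110 arrays lay above all 3 solvent arrays. The change was 0.077 ± 0.019 (SE, n = 3 arrays a group), a fold of 1.06, with a limma adjusted p of 0.0122. This call was lost (adjusted p 0.0509) without solvent replicate 13, and it was also lost when array medians were set equal, when variances were moderated without an intensity trend and when the RPS19 probe sets were averaged or the dimmest one was used. Another RPS19 probe set, of mean 13.76, differed by 0.067, and the dim one of mean 6.33 by 0.20, both upwards but short of the threshold when every probe set was tested separately (adjusted p 0.0816 and 0.197).

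Although few members passed, most were measured tightly. The 95% interval of the change lay within 1.1-fold in either direction for 45 of the 55 members, and within 1.25-fold for 53. For comparison it lay within 1.1-fold for 45.2% of the bright non-members and 3.92% of all tested genes. The 2 members outside 1.25-fold were RPL22L1 and RPLP2. RPS6, the substrate of the S6 kinases, changed by 0.0035 ± 0.025 (SE), RPL11 by 0.016 ± 0.026, RPS14, whose gene lies in the region lost in 5q- syndrome, by -0.022 ± 0.023, and RPS3 by 0.024 ± 0.024. None of these 4 differed beyond its error. A narrow interval on a probe set near saturation bounds the signal and not the RNA. RPS27L, a paralogue of RPS27 that p53 activates and that stands outside the symbol rule, had a mean of 13.12, dimmer than these 4. It read 12.96, 12.82 and 12.87 in solvent and 13.38, 13.26 and 13.32 with SGI-110, a rise of 0.44 ± 0.050 (SE, adjusted p 6.87e-05).

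**Figure D2:**
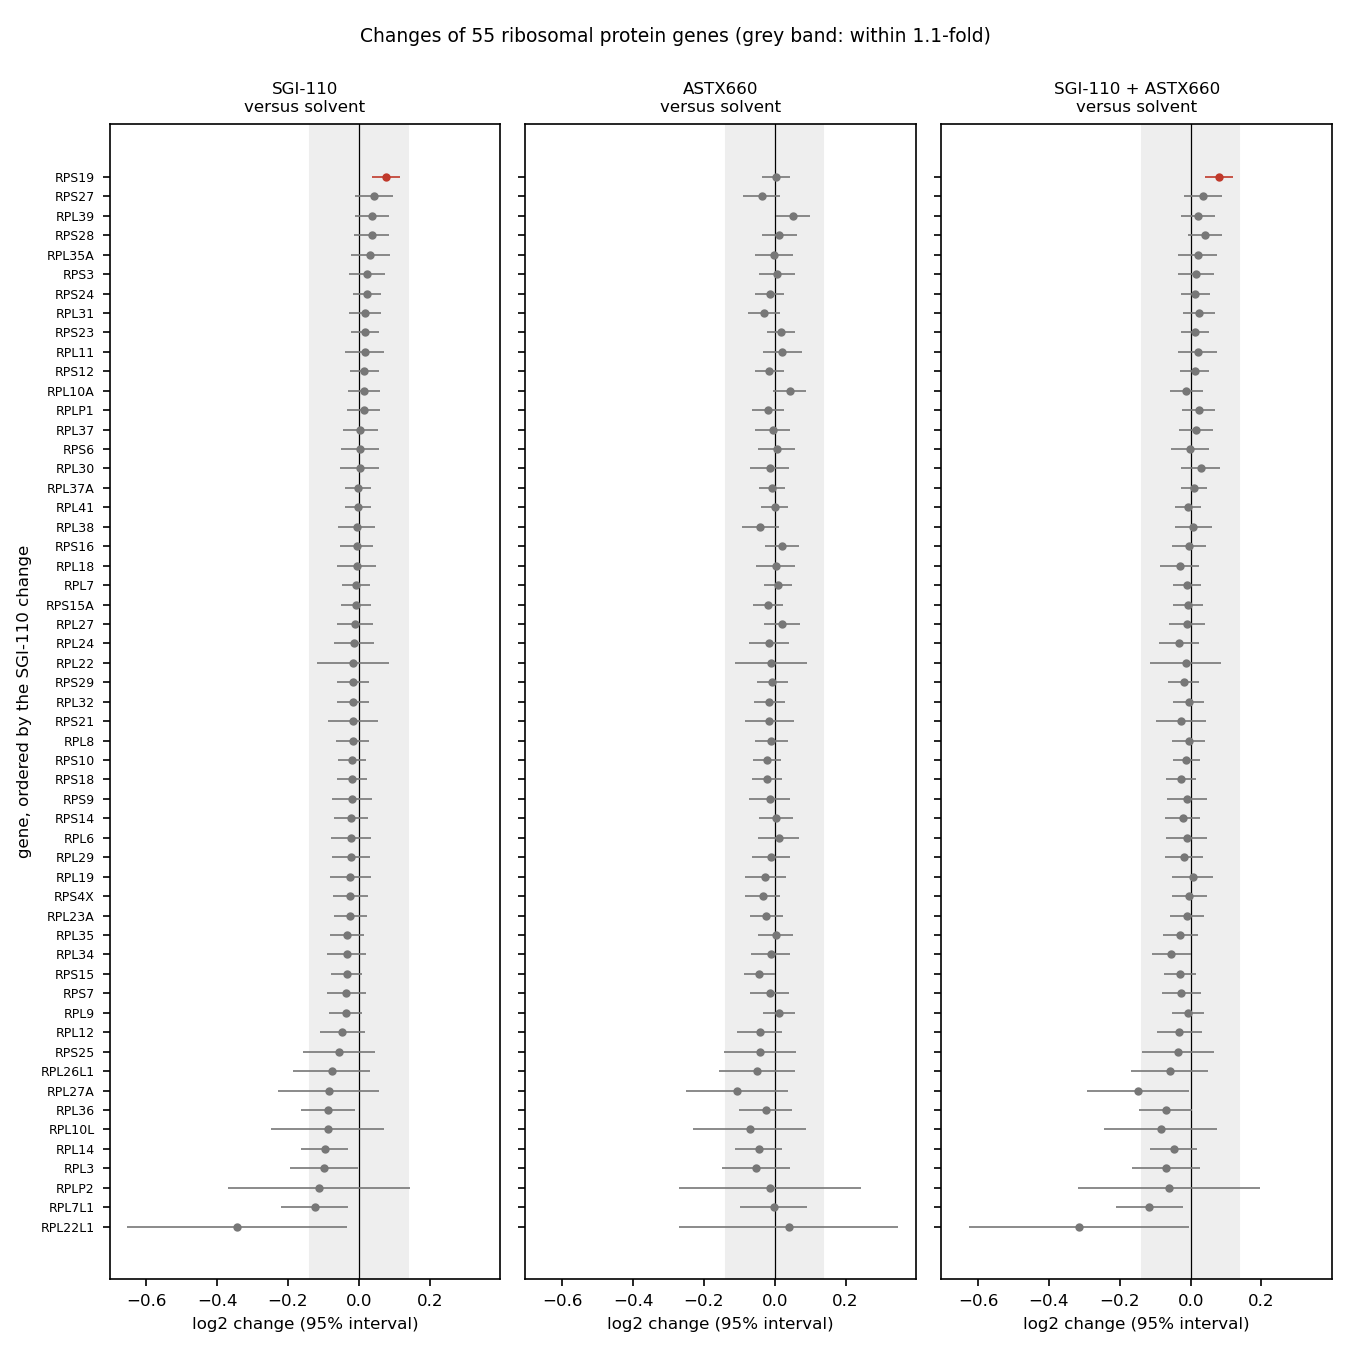
Log2 change of each of the 55 tested members (points) with its 95% interval (bars) for SGI-110, ASTX660 and the combination against solvent, ordered by the SGI-110 change. Red marks an adjusted p under 0.05 and the grey band spans changes within 1.1-fold. RPS19 is the one red point in the first and last panels, no point is red for ASTX660, and RPL22L1 has the lowest value and the widest interval with SGI-110.

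Arrays of the same number deviated together, and a fit that takes the number as a block called 4 more members with SGI-110, all lower. With the block 25.2% of all tested genes were called. RPL14, RPL36, RPL22L1 and RPL7L1 are described here because of these calls, which were known when they were chosen. RPL22L1, the paralogue of RPL22 that can replace it in the large subunit, read 12.19, 12.12 and 11.89 in solvent and 11.83, 11.92 and 11.43 with SGI-110. The groups overlapped, since array 13 was the lowest of its group in both, yet within each number SGI-110 was lower, with differences of -0.36, -0.20 and -0.47. The change was -0.34 ± 0.14 (SE), a fold of 1.27, with an adjusted p of 0.133 without the block and 2.47e-05 with it. RPL22 itself read 12.74, 12.84 and 12.87 in solvent and 12.72, 12.80 and 12.87 with SGI-110, a change of -0.016 ± 0.047 (adjusted p 0.874). Whether the change of RPL22L1 differs from that of RPL22 was not tested.

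RPL7L1, a relative of RPL7, read 11.90, 11.83 and 11.79 in solvent and 11.69, 11.71 and 11.73 with SGI-110, so that the groups did not overlap. The change was -0.12 ± 0.044 (SE), with an adjusted p of 0.0741 without the block and 0.0186 with it. It also passed without the block when ASTX660 array 2 was left out (adjusted p 0.0271). Its parent RPL7, at a mean of 13.98, changed by -0.0078 ± 0.019. The remaining tested paralogues were also below 0 without passing the test, RPL26L1 at -0.077 ± 0.050 and RPL10L at -0.088 ± 0.075, as was RPL3, the parent of RPL3L, at -0.098 ± 0.045 (adjusted p 0.172). RPL39, the parent of RPL39L, changed by 0.037 ± 0.023.

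Of the standard large subunit members, RPL14 read 13.37, 13.40 and 13.37 in solvent and 13.25, 13.34 and 13.27 with SGI-110. All 3 treated arrays were lower than all 3 solvent arrays. Its change was -0.096 ± 0.031 (SE), with an adjusted p of 0.0503 without the block and 0.00496 with it. RPL36 read 12.73, 12.75 and 12.79 in solvent and 12.61, 12.71 and 12.69 with SGI-110, also without overlap. Its change was -0.087 ± 0.035, with an adjusted p of 0.116 without the block and 0.0139 with it. Leaving out 1 array could bring RPL14 past the threshold without the block, which happened for SGI-110 array 9 and for combination arrays 9 and 13.

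**Figure D3:**
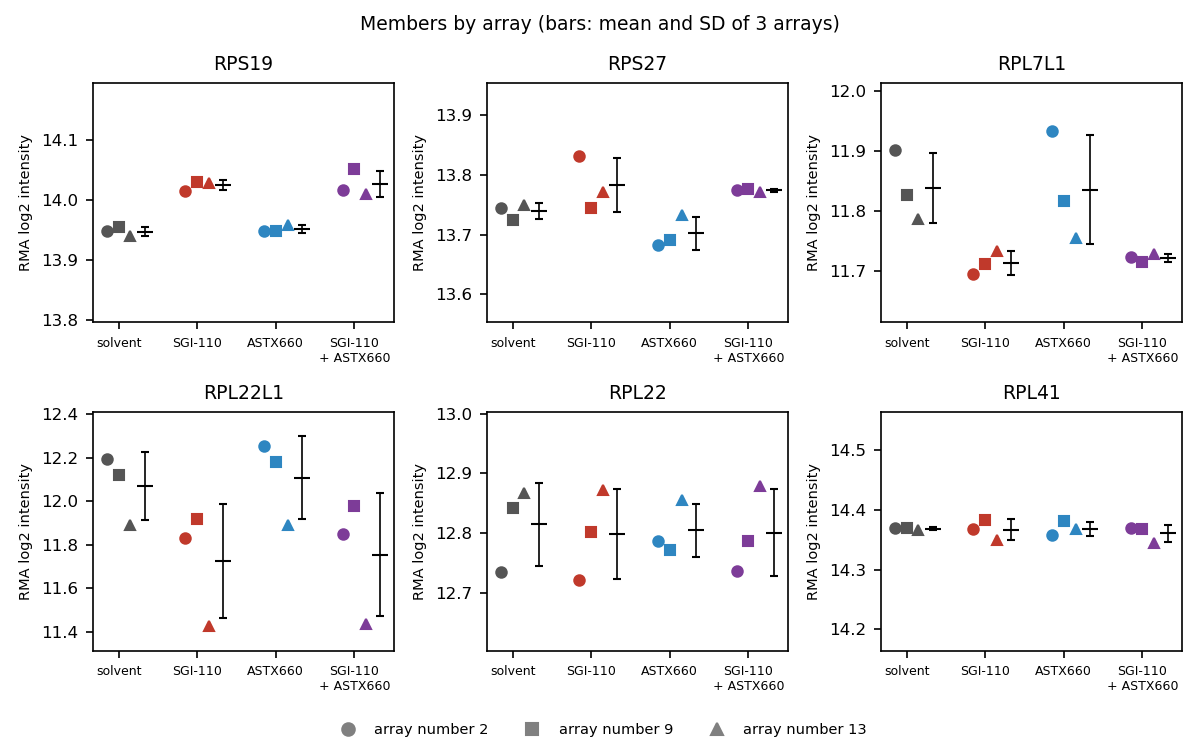
RMA log2 intensity of RPS19, RPS27, RPL7L1, RPL22L1, RPL22 and RPL41 on each of the 12 arrays, with the marker shape giving the array number. Bars to the right of each group are the mean and SD of its 3 arrays. The vertical axes span 0.4 log2 units except for RPL22L1 (1.1) and none starts at 0; RPS19 is higher in both groups with SGI-110, and the array numbered 13 is the lowest of every RPL22L1 group.

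ASTX660 alone called no member, and none of the 12689 genes (0%) at an adjusted p under 0.05 in limma; at an unadjusted p under 0.05 there were 894 genes and 1 member. With the block 1 gene was called and no member. That member was RPL39, a small protein at the exit tunnel of the large subunit. It read 13.85, 13.84 and 13.86 in solvent and 13.86, 13.93 and 13.90 with ASTX660, and the lowest of these ASTX660 arrays lay just above the highest solvent array. The change was 0.051 ± 0.023 (SE, adjusted p 0.701). The members' median change was -0.014, against 0.028 for all tested genes, and it turned to 0.013 when array medians were set equal, against 0.055 for all genes. RPS19 read 13.95, 13.95 and 13.96 with ASTX660 and RPL22L1 12.25, 12.18 and 11.89, both within the range of solvent or within 0.06 of it. The 95% interval lay within 1.1-fold for 48 of 55 members.

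The combination against solvent gave values close to those of SGI-110 alone; both comparisons use the same solvent arrays. RPS19 was again the single called member of 55, where 17.9% of all tested genes were called and 12.1% were called higher. It read 14.02, 14.05 and 14.01, above all solvent arrays, with a change of 0.079 ± 0.019 (SE, adjusted p 0.00976), a call lost without the intensity trend and with the dimmest probe set. With the block, 28.6% of all genes and 4 members were called: RPS19, higher, and RPL22L1, RPL7L1 and RPL36, lower. RPL22L1 read 11.85, 11.98 and 11.44, a change of -0.31 ± 0.14 with an adjusted p of 0.151 without and 5.8e-05 with the block. RPL7L1 read 11.72, 11.71 and 11.73, all below solvent, with a change of -0.12 ± 0.044 and adjusted p values of 0.0849 and 0.0257. RPL36 read 12.63, 12.73 and 12.69, with a change of -0.071 ± 0.035 and adjusted p values of 0.184 and 0.0395. RPL14 read 13.35, 13.37 and 13.28, a change of -0.048 ± 0.031, and passed with neither fit (0.307 and 0.138). It was called lower, however, with the mean of its probe sets and with its dimmest probe set. The members' median was -0.010, against 0.0012 for all genes, and turned to 0.014 with equal array medians, against 0.025 for all genes.

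Adding ASTX660 after SGI-110 called no member and no gene (0%) against SGI-110 alone in limma; 370 genes but no member had an unadjusted p under 0.05, and the block called 10 genes and no member. The members' median change was 0.0039, against 0.015 for all genes, and 51 of 55 intervals lay within 1.1-fold. RPS19 differed by 0.0018 ± 0.019 (SE) and RPL22L1 by 0.029 ± 0.14. The interaction, which compares the combination change with both single-agent changes added together, likewise called no member and no gene (0%), with 204 genes and 1 member (RPL10A, -0.070 ± 0.031) at an unadjusted p under 0.05. These 2 comparisons may also hold the difference in SGI-110 exposure between the groups.

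Against ASTX660 alone, the combination again called RPS19 only among the members. The change was 0.075 ± 0.019 (SE, adjusted p 0.0151), all 3 combination arrays lay above all 3 ASTX660 arrays, and 16.1% of all genes were called, with 8.37% called higher. This call was lost with equal array medians, without the intensity trend, with the mean of the probe sets and with the dimmest one. The members' median was -0.0059, against -0.0080 for all genes. RPL22L1 differed by -0.35 ± 0.14 (adjusted p 0.116), RPL7L1 by -0.11 ± 0.044 (0.101) and RPS27 by 0.072 ± 0.025 (0.0631).

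A further contrast, added after the data were seen, set the 6 arrays with SGI-110 against the 6 without it, whatever the ASTX660 treatment. It called 4 of 55 members, where 29.9% of all genes were called and 15.8% were called higher. RPS19 rose by 0.076 ± 0.013 (SE, adjusted p 0.000631) and RPS27, a zinc finger protein of the small subunit, by 0.057 ± 0.017 (0.0222). RPS27 read 13.74, 13.72 and 13.75 in solvent, 13.83, 13.74 and 13.77 with SGI-110, 13.68, 13.69 and 13.73 with ASTX660 and 13.78, 13.78 and 13.77 with the combination, and its lowest SGI-110 array lay within the solvent range. RPL7L1 changed by -0.12 ± 0.031 (adjusted p 0.0104) and its 6 arrays with SGI-110 lay below all 6 others, between 11.69 and 11.73 against 11.75 to 11.93. RPL22L1 changed by -0.35 ± 0.10 (adjusted p 0.0188). The RPS27 call was lost without solvent array 9 or ASTX660 array 9 (highest adjusted p 0.0525), whereas those of RPS19, RPL7L1 and RPL22L1 were kept under each of the 12 left-out arrays. Without the intensity trend the calls of RPS19 and RPS27 were lost and those of both paralogues were kept. The RPS27 call was also lost with the mean of its probe sets (adjusted p 0.112), and that of RPS19 with its dimmest probe set (0.145). Within 1.1-fold lay 50 of 55 intervals.

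Because the brightest probe set of each gene is the one nearest saturation, all 107 member probe sets above the filter were also tested separately, a choice made after the data were seen. In the contrast of 6 against 6 arrays, 3 were called higher and 11 lower, where 25.8% of 23660 probe sets of all genes were called. Under a mean of 8, 26.9% of member and 20.2% of other probe sets were called. The shares were 21.4% and 36.0% from 8 to 12, 14.3% and 41.4% from 12 to 13, and 5% and 25% from 13. Of the other genes' probe sets, 1794 were called higher and 1239 lower under 8, and 1295 and 1622 from 8 to 12. These counts were 58 and 70 from 12 to 13, and 11 and 13 at 13 or more. With SGI-110 against solvent, 2 were called, 1 in each direction, where 11.2% of all probe sets were called. The 3 higher ones were 2 of RPS19 and 1 of RPS27, all of mean 13.7 or more by their RMA log2 intensity, and the 11 lower ones had means under 13. Besides RPL22L1 and RPL7L1 they belonged to RPL14, RPL31, RPL37, RPLP2, RPS15A, RPS21 and RPS28, with 2 each for RPL37 and RPS28. The RPLP2 probe set had a mean of 4.78, close to the array medians of 4.69 to 4.77 used by the filter. The dimmer RPS28 probe set had a mean of 5.25.

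RPL37, a large subunit protein, shows the split between its probe sets. Its brightest probe set read 13.89, 13.88 and 13.89 in solvent and 13.92, 13.90 and 13.86 with SGI-110, without separation. A dimmer one, of mean 7.79, read 7.80, 8.01 and 7.83 in solvent and 7.53, 7.70 and 7.60 with SGI-110, a change of -0.27 ± 0.074 (SE, adjusted p 0.0296 among all probe sets). RPS28 behaved alike in the contrast of 6 against 6: its brightest probe set differed by 0.032 ± 0.016 and a dim one of mean 6.59 by -0.24 ± 0.057 (adjusted p 0.00587). RPS15A differed by 0.0015 ± 0.014 on its brightest and by -0.31 ± 0.059 on a dim probe set of mean 6.86 (adjusted p 0.00172). The probe sets of RPL31 went apart, at -0.26 ± 0.062 for one of mean 8.72 (adjusted p 0.00737) and 0.11 ± 0.063 for one of mean 9.13 (0.222). RPL35A and RPS19 had dim probe sets that read higher, at 0.090 ± 0.055 and 0.14 ± 0.065, neither past the threshold.

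Over all member probe sets, those with a mean under 8 had a median SGI-110 change of -0.084 (26 probe sets, 20 of them below 0), against 0.0070 for other genes' probe sets of that brightness. Between 8 and 12 the medians were -0.081 (14 probe sets, 12 below 0) and -0.012, and between 12 and 13 they were -0.056 (7 probe sets, all below 0) and -0.018. At 13 or more they were -0.0085 (60 probe sets, 41 below 0) and -0.016. Among other genes' probe sets, 7219 of 15042 were below 0 under 8, and 4299 of 8106 between 8 and 12. Their counts were 178 of 309 between 12 and 13, and 58 of 96 at 13 or more. The median standard error of a single member probe set was 0.095, 0.081, 0.047 and 0.023 in these 4 classes. Among 30 genes with more than 1 tested probe set, the dimmest was below 0 in 22 with SGI-110 and the brightest in 19. The change of the dimmest was larger in size than that of the brightest in 24. Dim probe sets also had the larger standard errors, so this last count does not separate change from error. Probe sets of a gene share its RNA and are not replicates. Dim probe sets can read unspliced or extended transcripts or relatives of the gene, and how far saturation, target and background enter the difference was not tested.

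**Figure D4:**
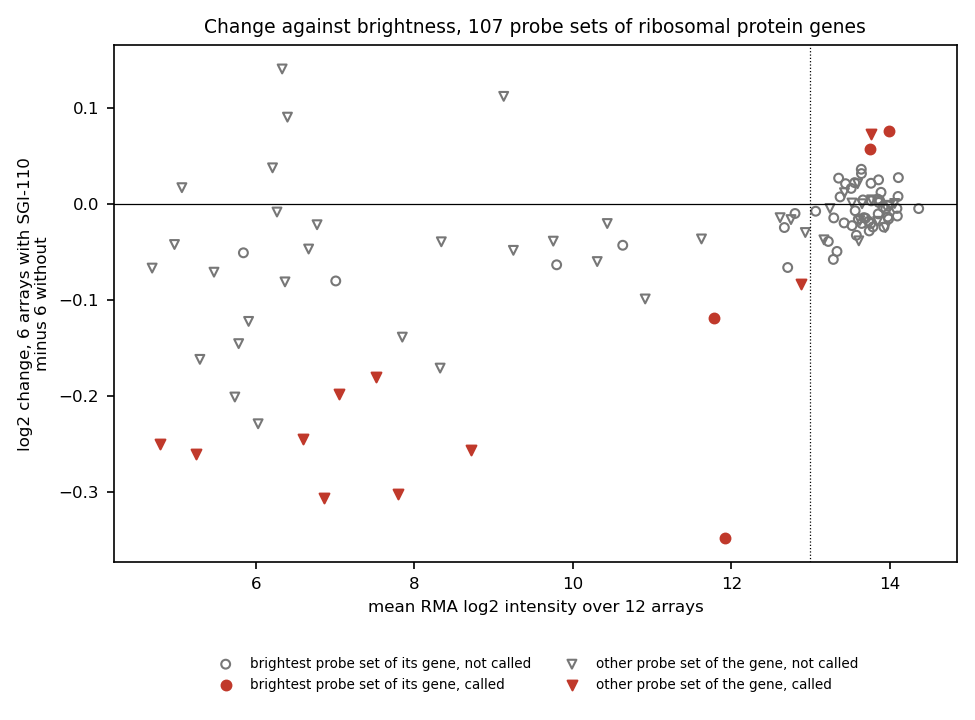
Log2 change between the 6 arrays with and the 6 without SGI-110 against the mean RMA log2 intensity, for 107 single-symbol probe sets of the members. Circles are the brightest probe set of a gene, triangles its other probe sets, and red marks an adjusted p under 0.05 among all probe sets. The 3 red points above 0 lie at 13.7 or more, the 11 below 0 lie under the dotted line at 13, and the unfilled points near 14 gather around 0.

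Changes were also set beside the tract at the start. With SGI-110 the median change was -0.010 for 34 tested members with the tract (from -0.34 for RPL22L1 to 0.077 for RPS19) and -0.024 for 15 without it (from -0.12 to 0.036). With ASTX660 the medians were -0.013 and -0.014, with the combination -0.011 and -0.013, and in the contrast of 6 against 6 arrays -0.0088 and -0.020. Whether members with and without the tract differ was not tested.

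Genes around the ribosomal proteins were read from lists. Of 13 tested translation factors and related genes whose messages also carry such tracts, SGI-110 called none higher and 1 lower, EIF3E, a subunit of initiation factor 3, at -0.10 ± 0.029 (SE, adjusted p 0.0280), beside 15.4% called among all genes. NPM1, the nucleolar chaperone of ribosome assembly, was at -0.11 ± 0.037 (0.0691). With the block 3 of the 13 were called lower, EIF3E, NPM1 and EIF4B, beside 25.2% of all genes. The median of the 13 was -0.025. EEF1A1, the elongation factor that brings aminoacyl-tRNA, had a mean of 14.31 and changed by 0.0046 ± 0.017. FAU and RPL36AL, ribosomal proteins outside the symbol rule, changed by 0.030 ± 0.031 and -0.026 ± 0.036 and did not pass.

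Of 14 tested genes of the mTOR arm, 1 rose and 3 fell with SGI-110, beside 15.4% of all genes called and 9.5% called higher. SESN1, a p53-activated inhibitor of mTOR complex 1, rose by 1.57 ± 0.076 (SE, adjusted p 4.68e-08). LARP1, the protein that binds the tract, fell by 0.20 ± 0.042 on the log2 scale (adjusted p 0.00595), and EIF4EBP1, a repressor of cap-dependent translation, fell by 0.50 ± 0.088 (0.00194). RPTOR, the substrate adaptor of mTOR complex 1, fell by 0.37 ± 0.12 (0.0477). LARP1 read 11.40, 11.41 and 11.35 in solvent and 11.17, 11.24 and 11.16 with SGI-110, with no overlap. With the block 2 of the 14 were called higher and 4 lower, where 25.2% of all genes were called. The added ones were SESN2, a relative of SESN1, at 0.26 ± 0.12 (adjusted p 0.152 without and 0.0056 with the block) and DDIT4, an inhibitor of mTOR complex 1, at -0.24 ± 0.096 (0.114 and 0.0021). The changes of the members' messages are given above, and their translation, which this arm controls, was not measured.

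Of 10 tested genes of RNA polymerase I, which makes ribosomal RNA, UBTF, the factor that opens its promoter, rose by 0.26 ± 0.064 (SE, adjusted p 0.0126). The subunits POLR1A and POLR1C fell by 0.35 ± 0.092 and 0.22 ± 0.068 (0.0189 and 0.0392), and the other 7 did not pass. Among all genes 15.4% were called and 9.5% called higher. With the block POLR1B was also called lower, at -0.23 ± 0.074 (adjusted p 0.0513 without and 0.00866 with it), so that 1 of the 10 was called higher and 3 lower, beside the same 25.2%. Of 6 tested genes around the 5S particle and p53, CDKN1A and MDM2, both p53 targets, rose by 2.33 ± 0.12 and 1.32 ± 0.079 (4.96e-08 and 3.26e-07). RRS1 and RPF2, which load the 5S particle into the large subunit, fell by 0.28 ± 0.045 and 0.30 ± 0.052 (0.00103 and 0.00161). So 2 of the 6 were called higher and 2 lower, beside 15.4% of all genes called and 9.5% called higher. RPL11, the member of that particle that could be read, was at 13.36, 13.35 and 13.38 in solvent and 13.36, 13.36 and 13.40 with SGI-110. The groups overlapped in part, since SGI-110 array 13 lay above all solvent arrays. ASTX660 alone called no gene of these lists, with no gene called in all. Of the 4 lists named here with SGI-110 calls, the combination against solvent called 1 lower among the translation factors, 1 higher and 2 lower in the mTOR arm, 1 higher and 1 lower for RNA polymerase I, and 2 higher and 2 lower around the 5S particle. Among all genes the combination called 17.9%, and 12.1% higher. With the block it called 3 of the translation factors lower, beside 28.6% of all genes.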

How the data were processed

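The deposited values of the 12 arrays are log2 intensities, which the authors made with RMA in the affy package, per the submitters' processing notes, which give no version. The arrays were Affymetrix 3′ expression arrays hybridised with biotin-labelled cRNA, per the labels' protocols. Members and gene lists were chosen with earlier results of these data known.

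Probe sets were named through the platform annotation, which lists 42898 of 54675 probe sets; 41091 with 1 symbol were used. A gene entered the tests if its brightest probe set was above the median of the array on 3 or more arrays. limma 3.58.1 in R 4.3.3 fitted 1 mean per group with an intensity trend (8 residual degrees of freedom), and p-values were two-sided and adjusted by Benjamini-Hochberg within each comparison, with calls at an adjusted p under 0.05. The script was tested on simulated data. The number of arrays limits the precision.

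Named members were those called, the 5 brightest, the 5 dimmest, the 5 most variable, the paralogues with their parents and a set of well-studied proteins. Exceptions are stated where they occur.

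The main fit did not use the titles' numbers 2, 9 and 13, and only the fit with the block took them as a pairing. They were read as a pairing where deviations from the group means correlated above 0.1 for every number. In the order of the numbers, SGI-110 and solvent arrays gave r of 0.377, 0.367 and 0.572, ASTX660 and solvent arrays 0.321, 0.471 and 0.550, combination and solvent arrays 0.150, 0.159 and 0.541, and combination and SGI-110 arrays 0.208, 0.484 and 0.544. Combination and ASTX660 arrays did not meet this, at 0.0570, 0.158 and 0.539.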

Additional observations from a re-analysis of the deposited data

Results flagged for a closer look

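In 5 of the 55 tested members, all 3 same-numbered differences went one way in one setting and all 3 the other way in the other setting; the opposite signs themselves were not tested. The share of all tested genes with such signs is not given here, so the count is not read as a trait of the members. For the size, the interaction of limma is given, which called none of the 5 (adjusted p 1.00 for each).

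RPL14 was lower with ASTX660 than with solvent, by -0.019, -0.048 and -0.068 for numbers 2, 9 and 13, and higher with ASTX660 after SGI-110, by 0.11, 0.026 and 0.012, an interaction of 0.093 ± 0.044 (SE). RPL36 showed the same signs with an interaction of 0.042 ± 0.050. RPL19 was lower with SGI-110 than with solvent and higher with the combination than with ASTX660, an interaction of 0.055 ± 0.038. RPL39 was higher with SGI-110 than with solvent and lower with the combination than with ASTX660, an interaction of -0.066 ± 0.032. RPL10A was higher with ASTX660 alone and lower with it after SGI-110, an interaction of -0.070 ± 0.031.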

How the results depend on the processing

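With SGI-110 against solvent, the count of called members was 0 with equal array medians, without an intensity trend, with the mean or the dimmest probe set and among members under 13, 2 with array weights, with host genes of small RNAs included and with every probe set tested, 5 with the replicate block, and 0 to 2 when 1 array was left out. For the combination with solvent it was 0 without the trend and under 13, 2 with array weights and with the mean of probe sets, 4 with the block, 5 with every probe set and 1 to 2 with 1 array left out. For the combination with ASTX660 it was 0 with equal medians, without the trend and under 13, 2 with the dimmest probe set, 3 with quantile normalization and with the mean, 6 with every probe set, and 1 to 2 with 1 array left out. There the correlation for number 2 was 0.057, below the 0.1 set for pairing. A block on the numbers called 6 members, RPS19, RPS27 and RPL31 higher and RPL10A, RPL22L1 and RPL7L1 lower. Beside them it called 3378 of 12689 genes. In the contrast of 6 against 6 arrays it was 2 without the trend, under 13 and without paralogues, 7 with quantile normalization and the dimmest probe set, 9 with the mean, 14 with every probe set and 8 with the block. There array weights called 3 higher and 2 lower, and including host genes of small RNAs 3 higher and 3 lower. With 1 array left out, the calls ran from 1 higher and 2 lower (solvent array 9) to 2 higher and 4 lower (SGI-110 array 9).

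The members' median change moved to 0.013 (ASTX660), 0.014 (combination) and 0.033 (combination with SGI-110) with equal array medians. With the dimmest probe set it was -0.030 (combination) and -0.036 (6 against 6). With quantile normalization it was -0.0064 for SGI-110 and -0.0068 for the combination, above the medians of all genes (-0.015 and -0.025). Among members under 13 it was -0.087 for SGI-110, -0.071 for the combination, -0.042 for the combination with ASTX660, 0.044 for the interaction and -0.063 for 6 against 6. The cause of these moves was not tested. The block changed no other count of called members. Among RPS19, RPS27, RPL22L1, RPL7L1, RPL14 and RPL36, no called change turned its sign under the settings tried. RPL31, outside these, did turn. In the contrast of 6 against 6 arrays it was called higher with array weights and with the block, and lower with its dimmest probe set. There its brightest probe set changed by 0.036 and its dimmest by -0.26. The 3 arrays per group near the top of the intensity scale limit the precision of small changes.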
